A study of Mus musculus with 10 samples.

Results

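Of the 56605 non-control probes on the array, 2556 carried a RefSeq accession that begins with NR, the prefix RefSeq gives to transcripts without an annotated protein, and these NR probes are described here. They were chosen by that accession alone and stood for 2412 accessions, of which 2363 took a name from a RefSeq gene table of the assembly GRCm38.p6. On at least 5 of the 10 arrays 1440 of them (56.3%) were well above background, and all 1440, from 1326 symbols, were tested. The remaining NR probes have no level here, and 767 (30.0%) were well above background on no array. Each of the 10 arrays held RNA from a single testis of a C57BL/6N male aged 6 weeks. The 5 R males were sons of dams that were given 50% of the control intake from 6.5 days post coitum and were fostered to unrelated control dams. The 5 C males came from dams that ate freely and were reared by those dams, so fostering and prenatal diet differ together between the groups. All males ate regular chow freely after weaning. Which males were litter mates is not given in the labels, and each male counts as a separate sample. A whole testis was measured, in which fewer cells of a type and less RNA per cell cannot be told apart.

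Long non-coding RNAs include transcripts that act where they are made. At imprinted loci, where 1 parental allele is active, RNAs such as Airn and Kcnq1ot1 are made from the paternal chromosome and keep neighbouring coding genes silent on it. Other NR transcripts are hosts from whose introns small nucleolar RNAs or microRNAs are cut, structured RNAs of ribosomes and RNA-processing enzymes, pseudogenes, antisense RNAs, or clones known mainly from testis libraries. Round spermatids and spermatocytes are known for transcribing an unusually large share of non-coding loci. The labelling kits used for these arrays copy RNA from the poly(A) tail, so RNAs without a tail are read less directly.

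The promoters of 5 RNAs whose levels carry the comparisons are shown first, since 3 of them (Kcnq1ot1, Airn and Meg3) were higher in R and 2 (Chaserr and Mir22hg) were lower. Each sequence runs 5′ to 3′ along the gene's strand, from RefSeq on GRCm38.p6, with CCAAT or its reverse complement ATTGG in capitals, the pentamer bound by nuclear factor Y. The Kcnq1ot1 promoter lies at chr7:143296498-143296797 on the minus strand, that of Airn at chr17:12741061-12741360 on the plus strand, and that of Meg3 at chr12:109540746-109541045 on the plus strand. The Chaserr promoter lies at chr7:73558346-73558645 on the minus strand and that of Mir22hg at chr11:75461289-75461588 on the plus strand.
Kcnq1ot1: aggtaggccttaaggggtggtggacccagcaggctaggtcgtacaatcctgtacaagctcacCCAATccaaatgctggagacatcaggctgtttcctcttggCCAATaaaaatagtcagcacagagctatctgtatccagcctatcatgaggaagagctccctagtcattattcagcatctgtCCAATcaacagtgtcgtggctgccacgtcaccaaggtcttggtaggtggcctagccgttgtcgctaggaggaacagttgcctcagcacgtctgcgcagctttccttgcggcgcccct
Airn: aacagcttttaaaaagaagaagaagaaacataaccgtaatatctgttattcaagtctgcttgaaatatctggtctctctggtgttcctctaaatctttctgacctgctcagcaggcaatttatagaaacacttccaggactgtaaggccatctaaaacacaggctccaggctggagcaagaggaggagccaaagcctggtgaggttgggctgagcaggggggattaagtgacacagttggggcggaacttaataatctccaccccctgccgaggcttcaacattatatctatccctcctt
Meg3: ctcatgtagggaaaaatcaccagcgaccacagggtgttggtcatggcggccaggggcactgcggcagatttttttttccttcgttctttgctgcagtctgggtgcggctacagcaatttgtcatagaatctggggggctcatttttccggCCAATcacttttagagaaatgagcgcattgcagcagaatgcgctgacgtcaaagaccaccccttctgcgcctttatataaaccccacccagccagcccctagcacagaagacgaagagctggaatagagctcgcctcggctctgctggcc
Chaserr: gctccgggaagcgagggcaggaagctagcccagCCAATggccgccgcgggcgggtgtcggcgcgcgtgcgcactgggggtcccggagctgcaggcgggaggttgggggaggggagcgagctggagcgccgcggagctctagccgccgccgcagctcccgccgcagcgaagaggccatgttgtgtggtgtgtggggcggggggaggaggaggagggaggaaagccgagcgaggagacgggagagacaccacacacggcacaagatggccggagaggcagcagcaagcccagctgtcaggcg
Mir22hg: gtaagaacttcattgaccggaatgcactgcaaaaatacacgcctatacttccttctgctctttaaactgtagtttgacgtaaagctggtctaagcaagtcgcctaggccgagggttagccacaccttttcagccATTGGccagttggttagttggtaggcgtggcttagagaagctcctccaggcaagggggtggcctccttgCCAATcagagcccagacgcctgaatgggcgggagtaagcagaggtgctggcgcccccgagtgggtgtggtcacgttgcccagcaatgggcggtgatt

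The Kcnq1ot1 window held 3 CCAAT pentamers, that of Mir22hg 2, those of Meg3 and Chaserr 1 each, and that of Airn 0. Of the 27025 promoters of the table, 37.9% held at least 1 on either strand. The hexamer TGCCGC, which ZFP57 binds at methylated imprinting control regions, was found on either strand in the Meg3 window (1 match) and in 0 of the other 4, against 11.6% of all promoters. The Meg3 window is 1 of 2 starts listed for that gene, and the other was not scanned. The Chaserr window held 30 CpG dinucleotides and that of Airn 3. Mir22hg is the host of miR-22, whose mature strands are given with the seed, bases 2 to 8, in capitals. Both strands lie on chromosome 11, and their seeds differ.
miR-22-3p: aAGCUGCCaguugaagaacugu
miR-22-5p: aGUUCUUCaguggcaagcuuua

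Between 51.2% and 61.9% of an array's NR probes exceeded background clearly (the scanner software's flag), with 56.6% ± 3.03 in C and 56.4% ± 4.42 in R (SD, n = 5 each, exact 2-sided permutation p = 0.921). For NM probes, which stand for coding transcripts, the shares were 73.4% ± 2.39 and 72.4% ± 3.84 (exact permutation p = 0.619). Values below are log2 processed signal minus the array's 75th percentile, called the log2 signal, which was 795 to 1005 before the log. C replicate 2 stood apart on principal component 1 of the NR probes (56.8% of the variance) at -24.5, while the other C arrays lay between -6.43 and -0.31 and the R arrays between 3.92 and 9.08. R replicate 1 and C replicate 5 are on the opposite sides in the authors' deposited table of their comparison. The labels' groups are used throughout, and results are also given without these 3 arrays. Of the marker genes of cell types, 3 of 4 each for Sertoli cells, spermatogonia and spermatocytes were called lower in R, beside 17% of all probes tested. So were 2 of 4 for Leydig cells, 2 of 3 for blood and 2 of 4 for macrophages. For spermatids 0 of 5 and for fat-pad adipocytes 0 of 4 were called, beside 38.6% of all probes. The signals of a cell type's markers were summed before the log was taken, so its brightest markers weigh most. On the log2 scale these sums ran from 7.16 to 7.80 in C and from 6.86 to 7.08 in R for Sertoli cells. For Leydig cells they ran from 4.27 to 5.14 and from 3.86 to 4.28, and for blood from 2.34 to 3.30 and from 1.60 to 2.78. The sums of spermatogonia ran from 3.13 to 3.77 in C and from 2.45 to 2.68 in R, and those of macrophages from 0.60 to 1.07 and from -0.06 to 0.50. For spermatocytes they ran from 5.94 to 6.17 in C and from 5.70 to 5.86 in R. Spermatid sums ran from 9.87 to 10.13 in C and from 9.94 to 10.14 in R. None of the 4 epididymis markers was tested. The neuronal marker Snap25 was the 1 marker called higher, with log2 signals from 2.02 to 3.16 in C and from 3.79 to 4.35 in R (limma adjusted p = 0.00396). The part these cells play in the differences below was not tested.

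A smaller share of NR than of NM probes was lower in R. A probe is called where limma's adjusted p (Benjamini-Hochberg over all 33851 probes tested) is under 0.05. Of 1440 NR probes, 254 (17.6%) were called higher and 130 (9.03%) lower, against 21.6% and 17% of all probes tested and 17.2% and 21.5% of the 21869 NM probes. In either direction 384 NR probes (26.7%) were called, against 38.6% of all probes. The groups did not overlap at 291 NR probes (20.2%), against 31.3% of all probes. With the study's added criterion of a fold above 1.5 or under 0.66, 126 NR probes were higher and 29 lower (8.75% and 2.01%, against 11.1% and 4.59% of all probes and 5.49% and 6.05% of NM probes). The median difference R minus C was 0.09 over NR probes, -0.02 over NM probes and 0.05 over all probes.

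NR probes were dimmer than NM probes, with median log2 signals of -1.34 and -0.47, so both were compared within bins of 0.5 of mean log2 signal. Over 1439 NR probes with NM probes in their bin, 17.7% were called higher and 9.03% lower. NM probes of equal signal, weighted to the same bins, were called higher in 16.7% and lower in 21.1%. With the slide as a block the shares higher were 31.7% for NR and 23.4% for NM probes, and on slide 1 alone 26.5% and 17.1%. The bin medians of the difference R minus C were 0.12 higher for NR than for NM probes (0.29 on slide 1 alone, 0.03 on slide 2 alone, 0.06 with array weights and 0.07 without C replicate 2), while the spread within groups was similar (median residual SD of 0.21 and 0.20). The gap was largest below a log2 signal of 0. In bins of 2, the medians were 0.15 for NR and -0.01 for NM probes from -4 to -2, and 0.12 and -0.06 from -2 to 0. From 0 to 2 they were 0.01 and -0.04, and from 2 to 4 they were 0.02 and 0.01. The shares lower from 2 to 4 were 15.1% and 18.5%. These shares and medians are a description of probes on the same arrays and carry no p-value. With each array's median as the reference, which moves the median of all probes from 0.05 to -0.16, 139 NR probes were higher and 330 lower, and the share of calls that were higher fell from 66.1% to 29.6%. At equal signal the shares lower were then 22.9% for NR and 36.5% for NM probes, and the bin medians still differed by 0.13.

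**Figure D1:**
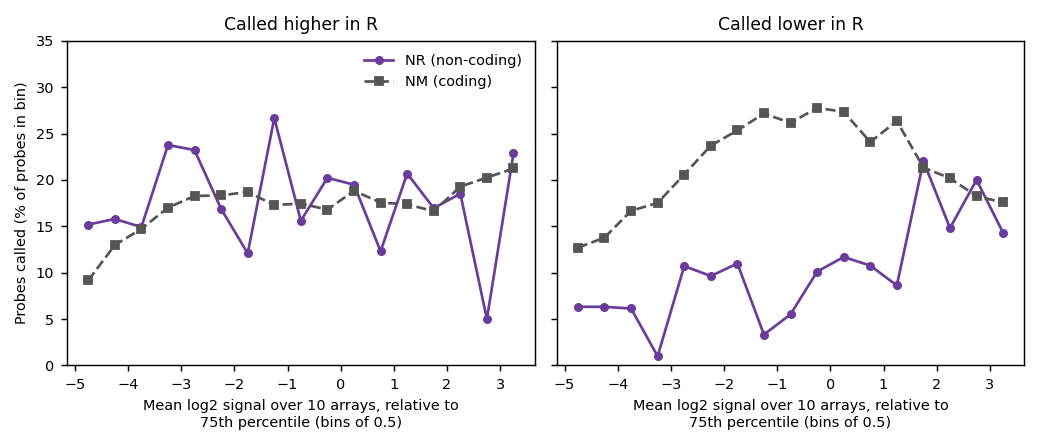
Share of probes called higher (left) and lower (right) in R, in percent of the probes of a bin, against mean log2 signal in bins of 0.5, for NR probes (circles) and NM probes (squares); bins with at least 20 NR probes are drawn. On the left the NR line runs both above and below the NM line. It stands at 26.7% against 17.3% in the bin from -1.5 to -1, and at 5% against 20.25% in that from 2.5 to 3. On the right the NR line lies below the NM line over most of the dim and middle range.

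By array, the NR signal minus the NM signal at equal mean signal was -0.14, -0.29, 0.02, 0.05 and -0.01 in C replicates 1 to 5. In R replicates 1 to 5 it was 0.07, -0.01, 0.13, 0.09 and 0.08. The groups overlapped, and C replicates 2 and 1 were the lowest. The slides differ in their make-up: slide 1 held C replicates 1 and 2 and R replicates 1 to 4, and slide 2 the other 4 arrays. On slide 1 alone 381 NR probes were higher and 92 lower, on slide 2 alone, with 1 R array, 0 and 0 (279 at an unadjusted p under 0.05), and with the slide as a block 456 and 159. Without R replicate 1 and C replicate 5, 90 were higher and 62 lower, and without C replicate 2 as well 139 and 62. Calls of NM probes moved with these settings too. They were 3751 higher and 4703 lower on all arrays, 3867 and 5047 on slide 1 and 5258 and 6284 with the slide as a block. Without R replicate 1 and C replicate 5 they were 1724 and 2445, and without C replicate 2 as well 2088 and 2541. Leaving out single arrays gave 152 (without R replicate 1) to 292 higher and 85 (without R replicate 4) to 129 lower.

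**Figure D2:**
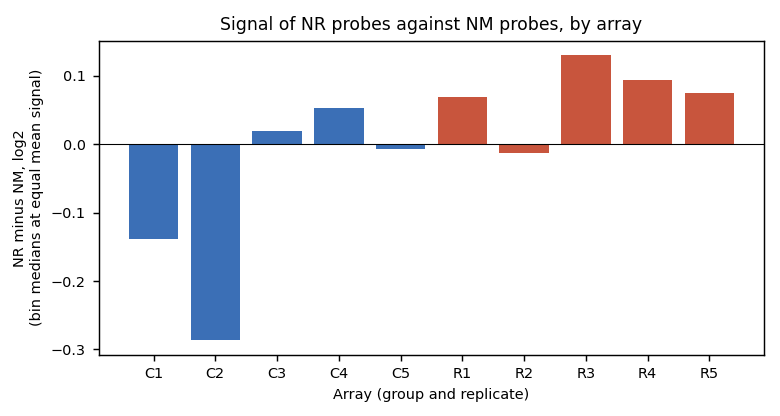
NR minus NM log2 signal at equal mean signal (bin medians weighted by the NR probes of each bin) for each array, C in blue and R in red. C replicate 2 is the lowest at -0.29 and R replicate 3 the highest at 0.13, and the groups overlap.

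Of 9 tested imprinted non-coding RNAs, 5 were called higher in R and 0 lower by limma (6 at an unadjusted p under 0.05, H19 among them), against 21.6% and 17% of all probes. The risers were Kcnq1ot1, Airn, Meg3, Gnasas1 and Peg13, in all 5 of which C replicate 2 was the lowest C testis, and the median of the 9 was 0.28, beside 0.09 over NR genes. Without R replicate 1 and C replicate 5, 3 were called (Kcnq1ot1, Airn and Peg13), and without C replicate 2 as well, 2 (Kcnq1ot1 and Airn). Kcnq1ot1 (NR_001461, chromosome 7), the antisense RNA that silences the Kcnq1 cluster, had log2 signals of 3.66, 2.75, 3.74, 3.69 and 3.71 in C and 4.61, 4.62, 4.37, 4.46 and 4.23 in R. All R testes lay above all C testes, and C replicate 2 was far below the other C testes. The fold was 1.93 (95% interval 1.45 to 2.58, limma adjusted p = 0.00529), with log2 differences of 1.31 on slide 1 and 0.52 on slide 2 and of 0.76 without C replicate 2. The other 3 Kcnq1ot1 probes were called higher too, by 0.89, 0.86 and 1.15 on the log2 scale. Airn (NR_027784, chromosome 17), which silences Igf2r, had log2 signals of -1.38, -2.69, -1.60, -1.61 and -1.55 in C and -0.73, -0.83, -1.03, -0.93 and -0.77 in R. Here too the groups did not overlap and C replicate 2 was lowest. Airn was 1.88-fold higher (1.34 to 2.63, limma adjusted p = 0.0114), by 1.16 on slide 1, 0.82 on slide 2 and 0.68 without C replicate 2 on the log2 scale.

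Meg3 (NR_027652, chromosome 12), a maternally expressed RNA of the Dlk1 cluster, had log2 signals of -1.24, -2.31, -0.82, -0.58 and -0.76 in C and -0.26, -0.55, -0.39, 0.12 and -0.04 in R. R replicate 2, the lowest of its group, lay just above C replicate 4, so the groups did not overlap. The other tested Meg3 probe was higher by 1.0 on the log2 scale (limma adjusted p = 0.0394). That probe was dim, at a mean log2 signal of -4.56, and its groups overlapped. It was well above background on 2 C and 4 R arrays. At its brightest probe Meg3 was 1.89-fold higher (1.19 to 2.99, limma adjusted p = 0.0349). The difference was 0.63 without C replicate 2, and the call was lost without C replicate 1, R replicate 1, R replicate 3, R replicate 4 or R replicate 5 (limma adjusted p up to 0.0788) and without R replicate 1 and C replicate 5 together (0.0744). Gnasas1, transcribed against the Gnas locus, ran from -4.00 to -3.42 in C and from -3.41 to -2.42 in R, a 1.62-fold rise (limma adjusted p = 0.0154, and 0.0695 without R replicate 1 and C replicate 5). Peg13, inside Trappc9, ran from -0.37 to -0.09 in C and from -0.12 to 0.18 in R, a 1.22-fold rise with overlap (limma adjusted p = 0.0274). With each array's median as reference Peg13 was not called (0.07, limma adjusted p = 0.532), nor was it without C replicate 1, R replicate 3, R replicate 4 or R replicate 5 (adjusted p up to 0.0664). H19, the maternally expressed RNA beside Igf2, went the other way without passing the test (-0.48, limma adjusted p = 0.075), but was called with each array's median as reference (-0.69, adjusted p = 0.0323). Mirg (0.09), Rian (-0.03) and A230057D06Rik (0.13) were not called, although Mirg and Rian lie in the same cluster as Meg3.

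**Figure D3:**
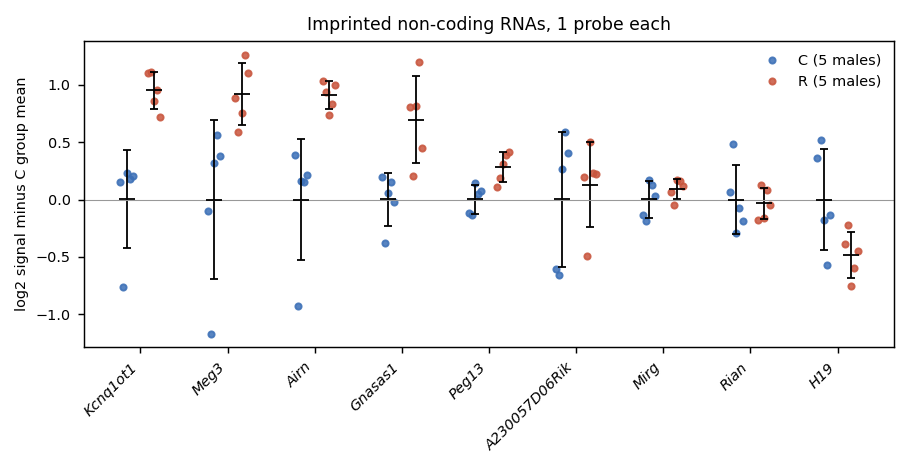
Log2 signal of the 9 tested imprinted non-coding RNAs in each testis, minus the mean of the C group, for C (blue) and R (red), with mean and SD of 5 males per group. Kcnq1ot1, Meg3, Airn and Gnasas1 show no overlap between groups, Peg13 overlaps, and C replicate 2 is the lowest C point of these 5 RNAs.

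The coding genes at these loci were read from a list of 18, of which 11 were tested, and 7 of them were called lower in R, 2 higher and 2 neither (17% and 21.6% of all probes). Igf2r, the receptor that clears IGF2 and the target of Airn, was -0.86 to -0.63 in C and -1.42 to -1.16 in R, without overlap. It was 1.41-fold lower (limma adjusted p = 0.00216), by 0.49 on slide 1 and 0.57 on slide 2 on the log2 scale. Cdkn1c, a growth-restraining cell cycle inhibitor of the Kcnq1ot1 domain, was 1.33-fold lower (limma adjusted p = 0.0119). Ascl2 and Tssc4 of the same domain were lower by 0.82 and 0.22 on the log2 scale, while Slc22a18 was higher by 0.33 and Kcnq1 (0.61) and Cd81 (-0.38) did not pass at their brightest probe. The other Cd81 probe was called lower (-0.85), and the other Slc22a18 probe was not called (0.22). Dlk1, the coding neighbour of Meg3, was 2.08-fold lower (limma adjusted p = 0.00327), and Gnas, opposite Gnasas1, was 1.42-fold lower, although 1 of its other 3 probes was called higher (0.60). Trappc9, the host of Peg13, was higher by 0.32, and Igf2 was lower by 0.59 on the log2 scale at its brightest probe and by 0.11, not called, at the other. Single arrays decided the calls of Ascl2, Igf2, Tssc4 and Slc22a18, whose adjusted p rose to 0.0583, 0.0626, 0.0857 and 0.0645 when 1 array was left out. Without R replicate 1 and C replicate 5, Igf2r, Cdkn1c, Gnas and Dlk1 were still called lower and the other 5 were not called, and without C replicate 2 besides, Cdkn1c was not called either (limma adjusted p = 0.056). With each array's median as reference Slc22a18 and Trappc9 were not called (limma adjusted p = 0.216 and 0.283). These genes were chosen with the RNAs' values known and are a description.

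Among 16 tested nuclear and widely expressed long RNAs, 2 were called higher (Lncpint and Neat1) and 2 lower (Chaserr and Mir22hg), 12.5% each beside 21.6% and 17% of all probes, and the median was 0.14. Without C replicate 2, 5 were higher, with Morrbid, Miat and Fendrr added, and 2 lower. Lncpint, a p53-induced RNA, had log2 signals of -1.24, -2.86, -2.01, -2.0 and -1.52 in C and -0.48, -0.49, -0.51, -0.94 and -0.94 in R. The groups did not overlap, and the 2.38-fold rise (1.58 to 3.59, limma adjusted p = 0.00699) was 1.45 on slide 1, 0.90 on slide 2 and 1.02 without C replicate 2 on the log2 scale. A second Lncpint probe was higher by 0.46 without passing the test (limma adjusted p = 0.0644). Neat1, the scaffold of nuclear paraspeckles, ran from -3.68 to -3.12 in C and from -3.16 to -2.77 in R. It was 1.38-fold higher with overlap (limma adjusted p = 0.0119), and its other probe was 2.32-fold higher (adjusted p = 0.0156). The first Neat1 probe lost its call with each array's median as reference (adjusted p = 0.0539) and without R replicate 1 and C replicate 5 (0.0617). Norad, a cytoplasmic RNA that binds Pumilio proteins, was 0.15 at its brightest probe and not called, while 2 of its other 3 probes were called higher (0.30 and 0.28). Tug1 (0.38), Miat (0.76) and Fendrr (0.53) did not pass the test, nor did Pvt1, Sox2ot, Oip5os1, Pantr1, Bvht, Morrbid, Dleu2 and Mir100hg.

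Chaserr, which restrains its neighbour Chd2, had log2 signals of 2.68, 2.94, 2.83, 2.81 and 3.02 in C and 2.42, 2.37, 2.58, 2.37 and 2.46 in R. Every R testis was below every C testis, and Chaserr was 1.34-fold lower (1.19 to 1.51, limma adjusted p = 0.00439), by 0.38 on slide 1 and 0.43 on slide 2. Mir22hg, from which miR-22 is processed, had log2 signals of -1.71, -1.50, -2.05, -1.83 and -1.32 in C and -2.28, -2.21, -2.35, -2.32 and -2.44 in R. It was 1.56-fold lower without overlap (1.28 to 1.89, limma adjusted p = 0.00537), and the value says nothing of the mature strands printed above, which the array's probes here do not measure. Of 9 tested microRNA hosts, 1 was called higher and 1 lower, 11.1% each beside 21.6% and 17% of all probes. The riser was Carmn, a host of miR-143 and miR-145 in smooth muscle, which ran from -3.69 to -1.67 in C and from -1.34 to -0.64 in R. Carmn was 2.38-fold higher (limma adjusted p = 0.0195), with a log2 difference of 0.90 without C replicate 2, and the call was lost without R replicate 1 and C replicate 5 (adjusted p = 0.065). Mir124-2hg, host of a copy of the neuronal miR-124 and outside that list, was 1.85-fold lower with overlap (limma adjusted p = 0.0147, and 0.0623 without R replicate 1 and C replicate 5). The RNA of the Gt(ROSA)26Sor locus, the site commonly used for transgenes, ran from 1.82 to 2.32 in C and from 1.36 to 1.54 in R and was 1.57-fold lower (limma adjusted p = 0.00207). Of its other 2 probes, 1 was called lower (-0.22) and 1 was not called (-0.09).

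Host genes of small nucleolar RNAs, whose introns give the guides of ribosomal RNA modification, went both ways, with 2 of 15 called higher (13.3%, beside 21.6% of all probes) and 5 lower (33.3%, beside 17%) and a median of -0.09. Without R replicate 1 and C replicate 5 the counts were 2 and 2. Snhg7 had log2 signals of 1.64, 0.40, 1.31, 1.33 and 1.36 in C and 2.35, 2.29, 1.95, 2.23 and 1.79 in R. The groups did not overlap, C replicate 2 was lowest, and Snhg7 was 1.88-fold higher (1.35 to 2.62, limma adjusted p = 0.0104), with a log2 difference of 0.71 without C replicate 2. Snhg15 was 1.58-fold higher (limma adjusted p = 0.00592), and its other probe was 2.07-fold higher although R replicate 5 there lay within the C range. Snhg1 had log2 signals of -2.29, -2.06, -2.31, -2.37 and -2.34 in C and -2.64, -2.74, -2.63, -2.70 and -2.61 in R. It was 1.31-fold lower (limma adjusted p = 0.00418), and Zfas1, a host gene antisense to Znfx1, was 1.32-fold lower (limma adjusted p = 0.00886). Snhg3 (-0.21), Snhg6 (-0.42) and Snhg18 (-0.39), named after their values were seen, were the other 3 hosts called lower. Of 8 tested small nucleolar and Cajal body RNAs, 0 were called higher and 2 lower (25%, beside 17% of all probes): Snora73a, which guides pre-ribosomal RNA processing (1.46-fold, limma adjusted p = 0.023), and Scarna13, a Cajal body RNA (1.20-fold, limma adjusted p = 0.0488). Neither call held when single arrays were left out in turn, with adjusted p up to 0.0567 and 0.102.

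Of 7 tested structured housekeeping RNAs, 1 was called higher (14.3%, beside 21.6% of all probes) and 0 lower (17% of all probes). Rn4.5s, a 4.5S RNA gene of rodents, had log2 signals of 7.38, 6.78, 7.20, 7.23 and 7.33 in C and 7.76, 7.76, 7.57, 7.68 and 7.51 in R. All R testes were above all C testes, and the fold was 1.39 (1.16 to 1.65, limma adjusted p = 0.0116). The 28S ribosomal RNA Rn28s1 (0.26), the signal recognition particle RNA Rn7s1 (-0.23), the transcription-restraining 7SK RNA Rn7sk (0.22), Rnu12 of the minor spliceosome (0.15) and the RNA subunits Rpph1 of RNase P (-0.53) and Rmrp of RNase MRP (-0.40) were not called. Rn7sk varied most within groups, from 1.22 to 2.72 in C and from 1.47 to 3.12 in R. The related gene Rprl1, an RNase P RNA-like copy, fell, with log2 signals of -4.18, -3.61, -4.47, -4.13 and -4.21 in C and -5.40, -4.33, -5.40, -5.44 and -5.39 in R. R replicate 2 lay within the C range, the other R testes were below it, and the probe was well above background on 5 C arrays and 1 R array. The fold was 2.10 (1.47 to 3.01, limma adjusted p = 0.00758). Rprl2 and Rprl3, named after their values were seen, were lower by 0.68 and 0.69 on the log2 scale (limma adjusted p = 0.0142 and 0.02). So was the U3 small nucleolar RNA gene Rnu3b1, by 0.77 (adjusted p = 0.0222). These are near-identical multicopy genes, so their probes may share signal.

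The 10 largest rises among called NR genes lay between 1.25 and 1.75 on the log2 scale and came mostly from RIKEN clones and pseudogenes of unknown function. 4930539N22Rik, a clone named from a testis library, had log2 signals of -4.55, -5.48, -5.25, -6.73 and -4.98 in C and -3.47, -3.09, -3.78, -3.39 and -4.50 in R. The groups did not overlap by a small margin, and the clone was well above background on 1 C and 5 R arrays, with a 3.36-fold rise (1.84 to 6.13, limma adjusted p = 0.00856). 9530091C08Rik rose 3.34-fold (limma adjusted p = 0.0221) with C values from -7.03, in C replicate 2, to -4.17, and by 1.24 on the log2 scale without C replicate 2. Gm6402, a transcribed pseudogene on chromosome 17, had log2 signals of -4.01, -5.44, -4.40, -5.44 and -4.67 in C and -2.60, -2.58, -3.54, -3.14 and -3.47 in R. It rose 3.31-fold without overlap (2.04 to 5.36, limma adjusted p = 0.00396), by 1.76 on slide 1 and 1.37 on slide 2, and was well above background on 3 C and 5 R arrays. D830005E20Rik rose 2.72-fold, 4930509J09Rik 2.63-fold, 1110036E04Rik 2.56-fold, 3110099E03Rik 2.52-fold, Gm1647 2.51-fold and Gm3002 2.44-fold, with limma adjusted p between 0.0091 and 0.0348. The call of 4930509J09Rik was lost without C replicate 5, R replicate 1, R replicate 2, R replicate 3 or R replicate 5 (adjusted p up to 0.0764). Without R replicate 1 and C replicate 5 together, 9530091C08Rik, 4930509J09Rik, 1110036E04Rik, 3110099E03Rik, Gm1647 and Gm3002 were not called (limma adjusted p from 0.0524 to 0.103). 4930539N22Rik, Gm6402 and D830005E20Rik were still called then. C replicate 2 was the lowest C array for 9 of these 10 genes, and for 4930539N22Rik it was C replicate 4.

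The 10 largest falls among called NR genes, read at each gene's brightest probe, were smaller, between -1.12 and -0.81 on the log2 scale. A tested NR probe on chromosome 5, outside this selection, was at -1.85. H2-K2, a class I histocompatibility pseudogene, had log2 signals of 1.34, 1.62, 1.41, 1.24 and 1.38 in C and 0.60, 0.58, 0.56, 0.49 and 0.56 in R. The R testes lay close together and well below C, and H2-K2 was 1.79-fold lower (1.60 to 2.01, limma adjusted p = 0.000967). Class I genes are near-identical copies, so this probe may read more than 1 of them. Gm15133 on chromosome 7 ran from -4.44 to -3.65 in C and from -5.38 to -5.05 in R, a 1.98-fold fall (limma adjusted p = 0.00201), with 2 of 5 R arrays well above background. Mdrl, an X-linked RNA linked to mitochondrial dynamics, was 1.97-fold lower (limma adjusted p = 0.0218, and 0.0707 without R replicate 1 and C replicate 5). Iqsec3, a non-coding variant of a coding gene, was 1.81-fold lower with overlap, and its call was lost without each of 7 arrays (C replicates 1, 2 and 5 and R replicates 2 to 5, adjusted p up to 0.0855). The accessions NR_003546 and NR_015456, unnamed in the gene table used here, were 2.18-fold and 1.98-fold lower and each well above background on 1 R array. B630019K06Rik and 4930425K10Rik were 1.82-fold and 1.75-fold lower.

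**Figure D4:**
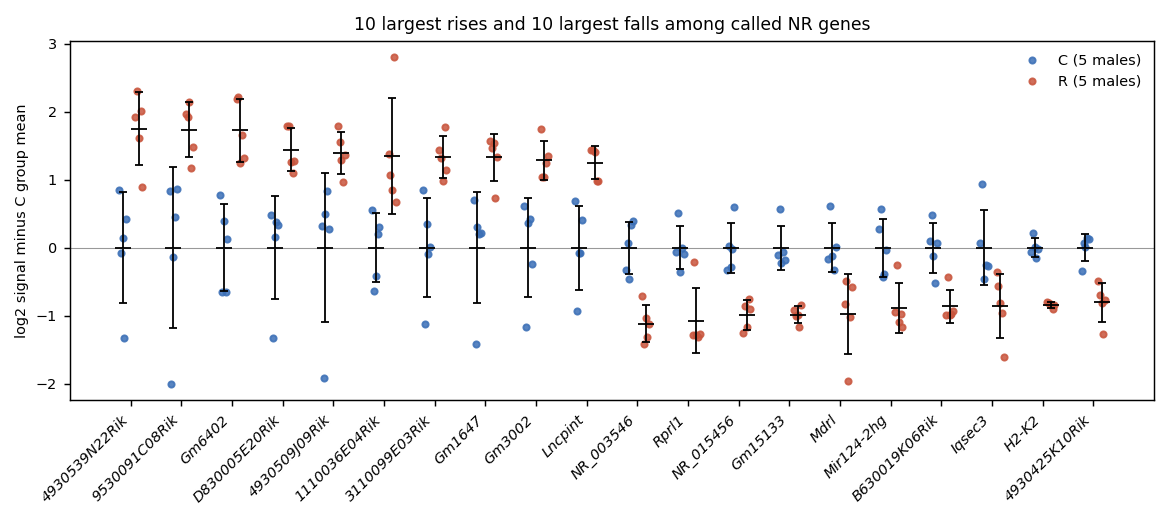
Log2 signal in each testis minus the mean of the C group for the 10 NR genes with the largest rises and the 10 with the largest falls among those called, C in blue and R in red, with mean and SD of 5 males per group. The rises reach 1.75 and show wide C values, often through 1 low C array, while the falls reach -1.12 with narrower C values.

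Sorted by name, the 545 tested clones of adult testis libraries had the lowest share of falls among the 8 classes with at least 20 probes, with 80 called higher (14.7%) and 27 lower (4.95%). NM probes of equal signal were higher in 17.3% and lower in 22.4%. Called either way were 19.6% of these clones and 39.7% of NM probes of equal signal. Predicted genes had 41 higher (24.7%) and 9 lower (5.42%) of 166, pseudogenes 43 (22.1%) and 28 (14.4%) of 195, and named non-coding genes 33 (22.3%) and 20 (13.5%) of 148. RNAs of the opposite strand or antisense to a gene had 11 (11.5%) and 11 (11.5%) of 96. Of all probes tested, 21.6% were called higher and 17% lower. NM probes of equal signal were higher in 15.9% to 17.3% across the 8 classes. In every one of these classes a smaller share was lower than among NM probes of equal signal, which were lower in 19.8% to 22.4%. The testis clone 4930513D17Rik had log2 signals of -1.63, -2.13, -1.64, -1.72 and -1.60 in C and -0.78, -0.72, -0.99, -0.69 and -0.97 in R, a 1.88-fold rise without overlap (1.58 to 2.25, limma adjusted p = 0.00141). 4930444F02Rik was 1.70-fold higher (limma adjusted p = 0.00274), and of its other 3 probes 2 were higher by 0.93 and 1.16 and 1 was not called (0.06). The pseudogene Pisd-ps2 was 1.69-fold higher (limma adjusted p = 0.000997) and E130201H02Rik 1.58-fold higher (adjusted p = 0.00149), both without overlap. Platr22, an RNA named for pluripotent cells, ran from -4.18 to -3.54 in C and from -3.25 to -2.40 in R, a 2.02-fold rise (limma adjusted p = 0.00401). Snrnp70, a non-coding variant of the gene of a U1 spliceosome protein, was 2.06-fold higher (limma adjusted p = 0.00756), with a log2 difference of 0.81 without C replicate 2.

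**Figure D5:**
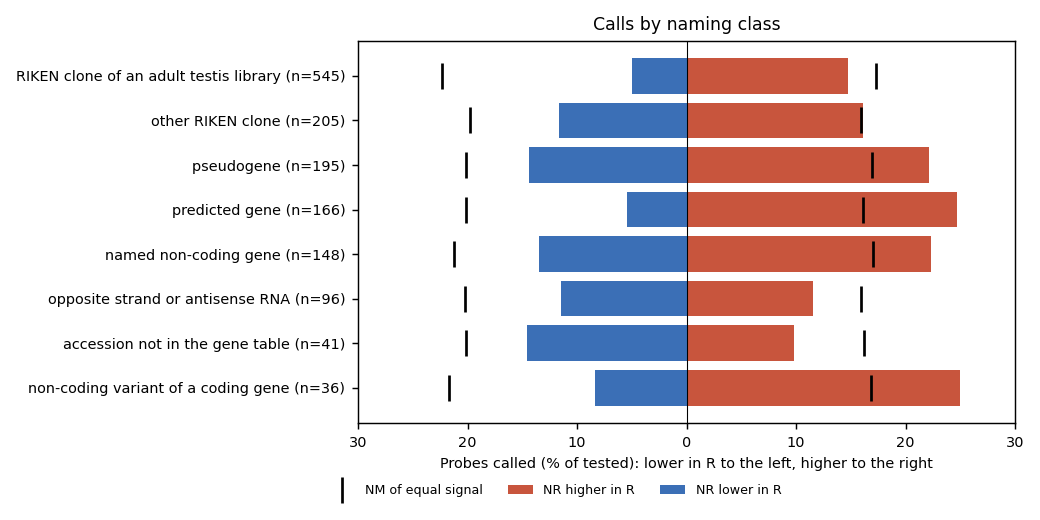
Share of tested NR probes called lower (blue, to the left) and higher (red, to the right) in R for each naming class, in percent, with black marks at the share of NM probes of equal signal. In all 8 classes the blue bar ends short of its mark, most of all for testis clones at 4.95% against 22.4%.

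Among the 10 NR genes with the brightest probes, 1 was called lower and 1, Rn4.5s, higher. 1700027A15Rik on chromosome 1, a testis clone, had log2 signals of 6.62, 7.31, 6.90, 6.94 and 7.21 in C and 6.37, 6.40, 6.23, 6.06 and 6.27 in R. It was 1.66-fold lower without overlap (1.36 to 2.02, limma adjusted p = 0.00364), by 0.70 on slide 1 and 0.74 on slide 2. The other 8 differed by -0.16 to 0.26 and were not called. They were NR_003278 (only unnamed in the gene table used here), Rn28s1, Rbakdn, Gm8580, Gm9999, Gm6607, 1700003E24Rik and Gm20751. Brightness depends on the probe, so it does not rank the RNAs by amount.

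On the X chromosome 5 of 47 NR probes were called higher and 11 lower (23.4%), beside 8.37% lower on the autosomes. X-linked NM probes were lower in 38.7% and autosomal ones in 20.9%, so the X was lower for both kinds of probe. The fallers included Tslrn1, an RNA described in testis (1.44-fold, limma adjusted p = 0.0313), whose call was lost without C replicate 1, R replicate 1, R replicate 3, R replicate 4 or R replicate 5 (adjusted p up to 0.0691). It was the 1 called member of 4 tested testis RNAs (25%, beside 38.6% of all probes called either way). Of the X inactivation list, 0 of 2 tested were called by limma (0 at an unadjusted p under 0.05), with Firre at 0.09 and Jpx, an activator of Xist, at -0.19. Of 3 Hox cluster RNAs tested, Hoxb5os (-0.08), Haglr (0.05) and Hoxd3os1 (0.01) were all uncalled. Chromosome 7 had the largest share of NR probes higher, 30 of 101 (29.7%), of which 4 were probes of Kcnq1ot1, and 18% of its NM probes were higher. On chromosome 16, 0 of 51 NR probes were lower, with 20.7% of its NM probes lower.

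NR genes were set beside coding genes that overlap them on the other strand or start within 1000 bases in the other direction. Of 152 divergent pairs 45 NR genes were called, and of 176 antisense pairs 37. Over all tested NR genes 26.3% were called, and over all probes 38.6%. In 18 divergent pairs both genes were called, 11 the same way and 7 in opposite ways. Smc2os and Smc2, which encodes a condensin subunit, were both lower (-0.36 and -0.31), as were Dgkeos and the lipid kinase gene Dgke (-0.55 and -0.38). Of 176 antisense pairs both genes were called in 13, 6 the same way and 7 in opposite ways. Besides Airn and Igf2r, Gm10791 and App went opposite ways, a pair named after its values were seen. Gm10791 was higher by 0.76 and App, the amyloid precursor gene it overlaps, lower by 0.46 on the log2 scale. Across pairs the differences of the 2 genes correlated with Pearson r of 0.20 (divergent, 152 pairs) and 0.01 (antisense, 176 pairs). The pairs share the same 10 arrays, and pairs are not replicates.

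Where a symbol had more than 1 tested NR probe, they were compared. Of 102 such symbols 78 had all probes of 1 sign. Of 53 with a called probe, 44 had all probes of 1 sign and 11 had every probe called the same way. In 1 of them, B230354K17Rik, named after its values were seen, probes were called in opposite directions. Of 1326 NR genes tested, 903 had a promoter in the RefSeq table. The promoters of the 71 genes called lower held a median of 14 CpG dinucleotides, those of the 149 called higher 6 and those of the 683 uncalled 6. Their median GC shares were 57.0%, 51.0% and 51.7%. The cAMP response element TGACGTCA, bound by CREB and the testis factor CREM, was found on either strand in 5.37% of the promoters of genes called higher, 4.23% of those lower, 2.64% of the uncalled and 1.88% of all promoters of the table. Among other motifs scanned, CCAAT was found in 37.6% of those higher, 26.8% of those lower and 37.2% of the uncalled. For the GC box the shares were 36.9%, 46.5% and 30.6%. These shares were not tested, and that of the cAMP element rests on few promoters. The Meg3 window printed above held the cAMP response element.

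The authors' deposited table, which sets R replicate 1 on the control side and C replicate 5 on the test side, listed 82 of the tested NR probes, 47 with a log ratio above 0 and 35 below. All of its q-values were 0.515. Of these 82, 32 were called here, and all 32 had the same sign in the authors' deposited table, which comes from the same arrays. All 82 had a p-value under 0.05 in the authors' own comparison. Probes selected in both ways on the same arrays can hardly differ in sign, so the equal signs are no support for the calls. With that table's grouping, limma called 0 NR probes and 0 NM probes, and 95 NR probes had an unadjusted p under 0.05. Their lowest limma adjusted p was 0.462.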

How the data were processed

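The authors deposited scanner files with spot intensity values and with flags for background, saturation and outlier spots. The submitters' processing notes name Agilent Feature Extraction 12.0.3.1. Background was subtracted and detrended within each array and no scaling was applied between arrays, per the file headers. A further deposited table holds the authors' comparison as log2 ratios, with a p-value and a q-value per probe and scaled intensity. No spot was saturated.

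Spots of a probe were averaged on the log2 scale after control and outlier spots were left out, and the array's 75th percentile over non-control spots was subtracted. A probe entered when at least 5 of the 10 arrays flagged it above background. All such probes were fitted together by limma (version 3.58.1, R version 4.3.3, 2-sided moderated test), and p-values were adjusted over all of them by the Benjamini-Hochberg method. The procedure was tested on simulated data. A gene stands for its brightest tested NR probe, and other probes are given where they differ. Lists were read through symbols and synonyms of the RefSeq table.

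Named are, by rule, the 10 brightest NR genes, the 10 largest rises and 10 largest falls among called genes, and every tested member of the lists of imprinted, nuclear, X inactivation and housekeeping RNAs. The rule also took the members of lowest p (4 at most) from every list and naming class, and only part of these are described. Exceptions are marked. Part of the neuronal marker list is not reported here. Members, lists, tests and coding partners were chosen with earlier results of these data known. Alternatives covered scaling, background correction, filters, slides, array weights, left-out arrays and the grouping of the authors' deposited table. Replicate numbers follow the order of deposition. The deposited table has 10 further per-sample columns that were not used here. The number of arrays limits the precision.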

Additional observations from a re-analysis of the deposited data

Results flagged for a closer look

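In 24 of 208 groups of 5 values looked at (named genes and 2 array measures), 1 array lay so far from the others that its gap exceeded 0.71 of the group's range, where chance flags about 5% of groups. In 18 of the 24 that array was C replicate 2.

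Among the C testes, C replicate 2 was the low array for 10 of these genes. Kcnq1ot1 was at 2.75 there (next lowest 3.66), Airn at -2.69 (next -1.61), Snhg7 at 0.40 (next 1.31) and Miat, a long nuclear RNA, at -5.39 (next -3.88). The non-coding Snrnp70 variant was at -0.35 (next 0.78). RIKEN clones and a predicted gene were low there too: 4930463O16Rik at -1.81, 4930513D17Rik at -2.13, D830005E20Rik at -5.18, Gm1647 at -5.42 and 4930509J09Rik at -6.62.

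C replicate 2 was the high array for 8 others, with NR_003278 at 8.75, Gm8580 at 6.91, Gm20751 at 6.39, 1700108J01Rik at 4.92 and Snora73a, a small nucleolar RNA, at 3.02. It was also high for the host genes Zfas1 at 0.11 and Snhg1 at -2.06 and for Gm15133 at -3.65. What sets this array apart was not tested.

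In the R group, R replicate 2 was high for Rprl1 at -4.33 (next highest -5.39), Mir124-2hg at -1.59 (next -2.29) and B630019K06Rik at -2.57 (next -3.06), and low for Gm14296 at -0.08. R replicate 4 was low for Gm1647 at -3.27, and C replicate 1 for 4930425K10Rik at -3.51.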

How the results depend on the processing

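No paired analysis was possible because the replicate numbers only follow the order of deposition. Against 254 NR probes higher and 130 lower, a median difference of 0.09 and 9.03% lower at equal signal, each array's median gave 139, 330, -0.11 and 22.9%, and quantile normalisation 203 lower (14.1%). No filter gave 157 and 83 (3.25%), slide 1 alone a median of 0.22, 6.39% lower and an NR minus NM median of 0.29 (0.12 in all arrays, 0.03 on slide 2), slide 2 alone and the authors' table's grouping 0 and 0 (0%). The slide as a block gave 456 higher (11.0% lower), no R replicate 1 and C replicate 5 gave 90 and 62 (4.31%), no C replicate 2 besides, chosen after seeing the data, 139 and 62 (4.31%), and the study's criterion 126 and 29. The share lower was 6.94% with the authors' scaling constants, 12.4% with array weights and 6.95% for linear intensities. The share lower was below that of NM probes in each setting compared at equal signal that made calls, which leaves out the study's criterion and 1 probe per gene. Well above background on all 10 arrays were 48.1% of NR probes.

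Single arrays left out gave 152 to 292 higher, 85 to 129 lower, medians of 0.05 to 0.12, 5.91% to 8.96% lower and NR minus NM medians of 0.07 to 0.16. Of 113 genes followed, 72 were called, 61 of them without any 1 array, 49 without R replicate 1 and C replicate 5, and 67 with each array's median. None of the 72 changed sign in the settings run, but of the 254 NR probes called higher 247 were above 0 with each array's median. Signs of genes called in neither fit were not counted. Background correction from mean spot signals was not run, and spot medians were used in its place, a choice made after seeing the files.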
